A study of Mus musculus with 10 samples.

Results

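The genes described here encode the proteasome. They were taken as all protein coding genes of GENCODE mouse release M21 whose symbol starts with Psm, one of the letters a to f and a digit, which gave 46 genes, all of them present among the 18381 genes of the expression table. One of them, Psmc3ip, matches the symbol rule but encodes a recombination factor and no subunit; the rule takes it in, so it is part of each count over the members. The expression data come from first lower molars of wild-type C57BL/6JOlaHsd mouse embryos at embryonic day 14 (E14). Each of 5 embryos (numbered 1, 2, 3, 4 and 6) gave a pair of teeth, and after dissection both were kept for 6 h in hanging drop culture. The medium of one tooth held the insulin-like growth factor IGF1, 750 ng/ml in PBS with BSA, and that of the other (control) held the vehicle without IGF1. Every library is thus 1 cultured tooth, 5 libraries per group, and the groups differ in no labelled feature other than IGF1.

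The proteasome degrades proteins that carry ubiquitin chains. Its core particle is a barrel of stacked rings, with outer alpha rings that gate the entrance and inner beta rings that hold the proteolytic sites, and a regulatory particle caps the barrel, where a base of ATPases unfolds substrates and a lid removes ubiquitin. The subunit genes tend to be transcribed together, the transcription factor Nfe2l1 raises them when proteasome activity is short, and interferon induces alternative beta subunits in immune cells.

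Libraries held 2845773 to 8403151 counts in the control group and 3456634 to 8763113 in the IGF1 group, and the 46 proteasome genes took 0.294% to 0.407% of them. Markers of both tooth tissues were present in every library, with Epcam (an epithelial adhesion protein) at 102 to 129 CPM in control and 83.3 to 145 CPM in IGF1 teeth, and Msx1 (a transcription factor of dental mesenchyme) at 233 to 305 and 214 to 276 CPM. CPM values are counts scaled to a common library size by TMM. Some genes of the marker lists moved with treatment: of 13 dental mesenchyme genes 3 fell (summed level 10428 to 12618 CPM in control and 9425 to 12371 CPM in IGF1 teeth), of 14 dental epithelium genes 1 rose (1869 to 2716 and 2158 to 2945 CPM), and of 6 erythroid genes tested 5 fell (849 to 1422 and 604 to 1109 CPM for the 7 listed). Of the genes tested, 1 of 8 for endothelium and 1 of 8 for macrophages fell, 0 of 4 for skeletal muscle changed and 1 of 2 for nerve and glia rose. Among all 14504 genes tested, 6.72% rose and 4.76% fell, so a single call in a short list says little about a cell type. With DESeq2 as an alternative test, 0 macrophage genes and 0 nerve and glia genes were called. No marker of these lists was at 0 in all libraries of a group. The part of these shifts in the proteasome values was not tested, and in whole teeth fewer cells of a type and less RNA per cell cannot be told apart.

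Of the 46 proteasome genes, 42 passed the filter on low counts, and 7 of these rose: Psma1 and Psma4 of the alpha ring, Psmc4 and Psmc5 of the base ATPases, Psmd1 and Psmd2 of the base scaffold, and Psmd14 of the lid. All 7 calls were lost when the pairing of teeth was left out of the fit or when embryo 6 was left out. The 7 genes make up 16.7% of the members tested, and among all 14504 genes tested 6.72% rose (edgeR's quasi-likelihood test with embryo as a block, Benjamini-Hochberg adjusted p under 0.05). None fell, against 4.76% of all genes. At an unadjusted p under 0.05, 21 members were higher (50% against 14.3% of all genes) and 0 lower (12.2% of all genes), and limma-voom and DESeq2 also called 0 members lower. The level was higher in all 5 embryos for 23 of the 42 members (54.8%), against 12.9% of all genes. The fitted log2 fold change was above 0 for 37 members (88.1%), against 49.4% of all genes, with a median of 0.18 over the members and -0.0038 over all genes tested. Without Psmc3ip, 7 of 41 rose (17.1%), 20 were higher at an unadjusted p under 0.05 (48.8%), 22 were higher in all 5 embryos (53.7%), and 36 had a fitted log2 fold change above 0 (87.8%).

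The groups overlapped for each member tested: every IGF1 library exceeded every control library for 0 of 42 members, against 4.21% of all genes. Fitted without the replicate block, 0 members rose, against 3.83% of all genes, with 15 higher at an unadjusted p under 0.05 (35.7%, against 10.8% of all genes). Adjusted p-values of the 7 genes in that fit ran from 0.0762 (Psmd2) to 0.226 (Psma1), at log2 fold changes of 0.27 to 0.43. Leaving out embryo 6 also gave 0 calls, against 4.08% of all genes, with 12 members higher at an unadjusted p under 0.05 (28.6%, against 11.6% of all genes). Without embryo 1, 1 member rose (4.60% of all genes), without embryo 2, 4 members (4.80%), without embryo 3, 9 members (6.36%), and without embryo 4, 3 members (4.16%), and the median log2 fold change over the members stayed between 0.13 and 0.22 in these fits. Some members outside the 7 passed in other fits. With at least 1 CPM required in every library these were Psmb3, Psmb5, Psmd11 and Psmd13, and with GC content and length trends removed Psma7, Psmc6, Psmd11 and Psmd13. Psmb3 passed without embryo 2, Psma7, Psmb3 and Psmd13 without embryo 3, and Psma7, Psmb3, Psmd6, Psmd13 and Psme3 with both left out, a setting chosen, like the trend removal, after seeing the data. Embryos 2 and 3 had the smallest ratios of Psmb3 (0.051 and 0.023 on the log2 scale, against 0.37, 0.62 and 0.65 in embryos 1, 4 and 6) and also of Psmd6, Psmd13 and Psme3, and embryo 3 that of Psma7, so leaving them out enlarges these differences by construction.

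**Figure D1:**
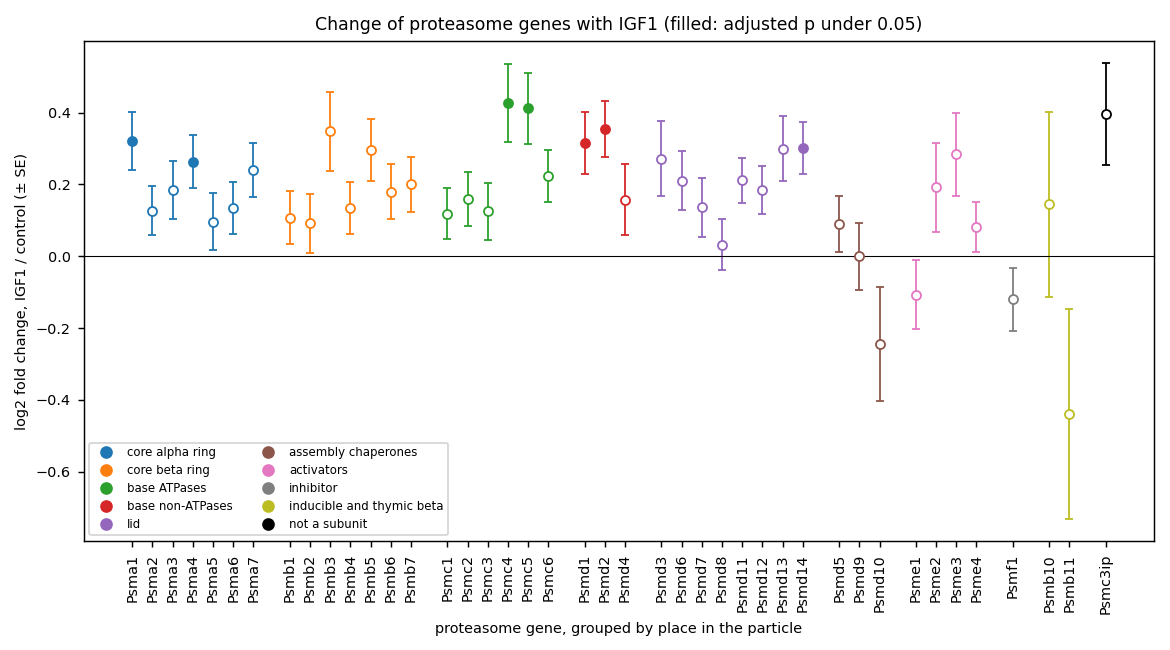
Log2 fold change (IGF1 over control, vertical axis, ± SE, n = 5 pairs) of each of the 42 members tested, grouped by place in the particle with Psmc3ip (no subunit) at the far right, with filled points for adjusted p under 0.05. All 31 constitutive subunits, on the left, lie above 0, whereas the chaperones, activators, inhibitor and thymic subunit lie on both sides of it.

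The constitutive particle is encoded by 31 of the members, 14 in the core and 17 in the regulatory particle. Each of the 31 had a fitted log2 fold change above 0, from 0.032 (Psmd8) to 0.43 (Psmc4), equal to 1.02-fold to 1.34-fold. Of these 31, 21 were higher in all 5 embryos and 9 in 4 of 5; Psmd8 was higher in 2 of 5. Their summed level was 2587 ± 149 CPM in control and 3024 ± 311 CPM in IGF1 teeth (mean ± SD, n = 5), and the log2 ratio within a pair averaged 0.22 ± 0.097 (SD, 5 pairs), equal to 1.17-fold. The median log2 fold change by part of the particle was 0.19 for the alpha ring, 0.18 for the beta ring, 0.19 for the ATPases, 0.32 for the 3 non-ATPase genes of the base and 0.21 for the lid. Differences between these medians were not tested.

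Within the core, the alpha ring had 2 genes of 7 that rose and the beta ring 0 of 7, against 6.72% of all genes. The medians of the rings were close (0.185 and 0.179), and a difference between the rings was not tested. Psma1 (ENSMUSG00000030751, chr7:114264606-114276118, minus strand) encodes a structural alpha subunit and measured 55.3, 83.4, 87.4, 75.03 and 91.02 CPM in the control teeth of embryos 1, 2, 3, 4 and 6, and 79.8, 102, 93.1, 91.04 and 126 CPM in their IGF1 teeth. The IGF1 tooth of embryo 1 was below 3 of the control teeth, so the groups overlapped, although in every embryo the IGF1 tooth was the higher of the pair. The level rose from 78.4 ± 14.2 to 98.3 ± 17.2 CPM (mean ± SD, n = 5), with a log2 fold change of 0.32 ± 0.080, adjusted p = 0.0257. Psma4 (ENSMUSG00000032301, chr9:54950790-54958030, plus strand), also of the alpha ring, measured 81.1, 87.7, 92.02, 86.8 and 105 CPM in the control teeth of embryos 1, 2, 3, 4 and 6, and 101, 97.1, 100.3, 119 and 128 CPM in their IGF1 teeth. Again each IGF1 tooth exceeded its partner, embryo 6 was the highest in both groups, and the groups overlapped. The change was 1.20-fold (log2 fold change 0.26 ± 0.073, adjusted p = 0.0414), the least certain of the 7 calls. It was lost in 10 of 16 alternatives, among them upper quartile and total count scaling, no count filter, DESeq2 and thinning. The other alpha subunits (Psma2, Psma3, Psma5, Psma6 and Psma7) had log2 fold changes of 0.10 (Psma5) to 0.24 (Psma7, adjusted p = 0.0664).

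In the beta ring, Psmb5, Psmb6 and Psmb7 carry the chymotrypsin-like, caspase-like and trypsin-like sites, and the others are structural. Psmb3 had the largest difference of the ring and measured 47.8, 39.4, 41.3, 41.6 and 45.4 CPM in the control teeth of embryos 1, 2, 3, 4 and 6, and 61.9, 40.9, 42.01, 64.1 and 71.5 CPM in their IGF1 teeth. Embryos 4 and 6 had the largest differences in CPM, and the log2 fold change of 0.35 ± 0.11 missed the threshold (adjusted p = 0.0667). For the catalytic subunits the log2 fold change was 0.30 ± 0.087, adjusted p = 0.0524 (Psmb5), 0.18 ± 0.076, adjusted p = 0.161 (Psmb6) and 0.20 ± 0.077, adjusted p = 0.121 (Psmb7), and each of them was higher in all 5 embryos. Psmb1, Psmb2 and Psmb4 ranged from 0.091 to 0.13, each higher in 4 of 5 embryos. At an unadjusted p under 0.05, 4 of the 7 genes of the ring were higher (Psmb3, Psmb5, Psmb6 and Psmb7), against 14.3% of all genes. DESeq2 and limma-voom also called 0 of the ring after adjustment. Psmb3 and Psmb5 passed with edgeR under the stricter count filter (adjusted p = 0.0482 and 0.0442).

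Among the 7 genes that rose, the 3 with the highest fold changes, Psmc4, Psmc5 and Psmd2, belong to the base. Psmc4 (ENSMUSG00000030603, chr7:28041707-28050101, minus strand), an ATPase of the ring that unfolds substrates, measured 62.5, 65.7, 87.9999, 92.6 and 84.1 CPM in the control teeth of embryos 1, 2, 3, 4 and 6, and 107, 91.1, 88.8, 108 and 138 CPM in their IGF1 teeth. The pair of embryo 3 was nearly level, that of embryo 1 was furthest apart in ratio, and the groups overlapped. The level rose from 78.6 ± 13.6 to 107 ± 19.6 CPM (mean ± SD, n = 5), 1.34-fold (log2 fold change 0.43 ± 0.11, adjusted p = 0.0287). Psmc5 (ENSMUSG00000020708, chr11:106256154-106263120, plus strand), another ATPase of that ring, measured 53.6, 49.8, 54.5, 69.8 and 60.1 CPM in the control teeth of embryos 1, 2, 3, 4 and 6, and 79.5, 65.5, 58.5, 82.998 and 102 CPM in their IGF1 teeth. The IGF1 teeth of embryos 1, 4 and 6 exceeded every control tooth, and those of embryos 2 and 3 did not. The rise was 1.33-fold (log2 fold change 0.41 ± 0.10, adjusted p = 0.0216). The remaining ATPases (Psmc1, Psmc2, Psmc3 and Psmc6) had log2 fold changes from 0.12 (Psmc1) to 0.22 (Psmc6, adjusted p = 0.0721).

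Psmd2 (ENSMUSG00000006998, chr16:20651652-20663414, plus strand), a scaffold of the base that docks ubiquitin shuttle proteins, had the smallest adjusted p of the members and measured 220.2, 159, 202, 228 and 184 CPM in the control teeth of embryos 1, 2, 3, 4 and 6, and 273, 225, 225, 265 and 277 CPM in their IGF1 teeth. Embryos 1, 4 and 6 gave IGF1 values above every control tooth, and only the control tooth of embryo 4 reached the IGF1 range. The level rose from 199 ± 27.96 to 253 ± 25.9 CPM (mean ± SD, n = 5) (log2 fold change 0.35 ± 0.078, adjusted p = 0.0146). Psmd1 (ENSMUSG00000026229, chr1:86064387-86139151, plus strand), the other large scaffold of the base, measured 102, 120.1, 123, 120.3 and 129.8 CPM in the control teeth of embryos 1, 2, 3, 4 and 6, and 149, 123, 136, 158 and 181 CPM in their IGF1 teeth. The difference was slight in embryo 2 and widest in embryos 1 and 6, and the groups overlapped. The rise was 1.24-fold (log2 fold change 0.32 ± 0.086, adjusted p = 0.0369), and the gene overlaps another annotated gene of the table, Gm21972. Psmd4, a ubiquitin receptor, had a log2 fold change of 0.16 ± 0.10, adjusted p = 0.349.

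In the lid, Psmd14 (ENSMUSG00000026914, chr2:61711694-61800376, plus strand) encodes the metalloprotease that removes ubiquitin chains from substrates, and it measured 54.3, 58.1, 51.5, 54.7 and 68.8 CPM in the control teeth of embryos 1, 2, 3, 4 and 6, and 66.8, 65.1, 67.4, 71.3 and 82.9 CPM in their IGF1 teeth. The IGF1 teeth of embryos 4 and 6 exceeded the highest control tooth, that of embryo 6, and those of embryos 1, 2 and 3 did not. The rise was 1.23-fold (log2 fold change 0.30 ± 0.072, adjusted p = 0.0223). Its call was lost in 7 of 16 alternatives, among them DESeq2 and leaving out embryo 1, 3, 4 or 6. The other lid genes were not called in that fit; Psmd13 (0.30 ± 0.091, adjusted p = 0.0581) and Psmd11 (0.21 ± 0.063, adjusted p = 0.0538) were closest to the threshold, and Psmd8 (0.032 ± 0.071, adjusted p = 0.820) had the smallest difference of the particle. Psmd3, Psmd6, Psmd7 and Psmd12 had log2 fold changes of 0.14 to 0.27.

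**Figure D2:**
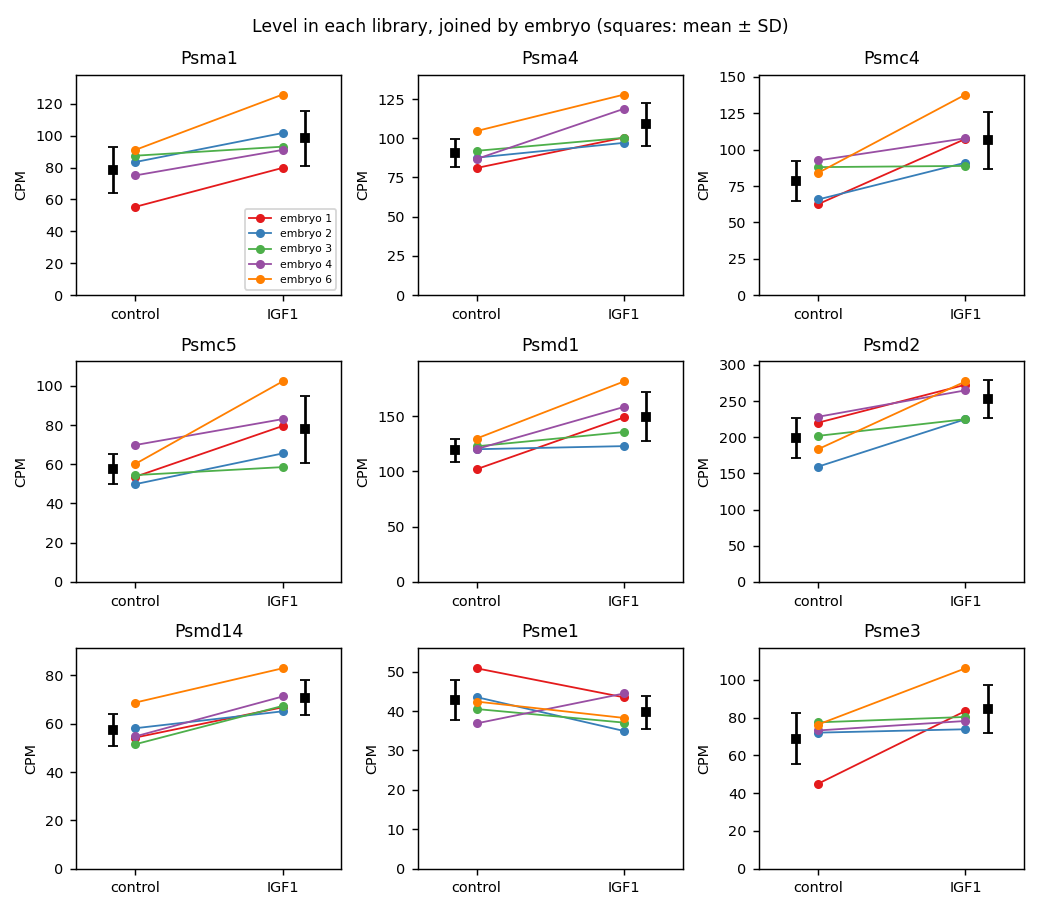
Level (CPM, vertical axis from 0) of the 7 genes that rose and, for comparison, of the activators Psme1 and Psme3, which did not pass, in each control and IGF1 tooth, with lines joining the teeth of an embryo and squares for the mean ± SD (n = 5). Lines of the 7 genes slope upward in every embryo while the groups overlap, as do those of Psme3, and those of Psme1 slope upward in 1 embryo.

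Embryos differed in the size of the difference. The median log2 ratio of the 31 constitutive subunits was 0.26, 0.16, 0.038, 0.22 and 0.29 in embryos 1, 2, 3, 4 and 6. Embryo 3 gave the smallest of the 5 ratios for 21 of the 31 genes, and embryo 6 the largest for 14. All 31 genes were higher with IGF1 in embryo 4, 30 in embryos 1 and 6, 28 in embryo 2 and 24 in embryo 3. Genes of the response to low oxygen also differed by embryo: the median log2 ratio of 9 of them, all called higher with IGF1, was 0.51, 3.01, 2.70, 1.16 and 1.16 in the same order. Embryos 2 and 3, with the highest hypoxia medians, had the lowest proteasome medians; whether the hypoxia genes and the proteasome genes are linked was not tested.

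**Figure D3:**
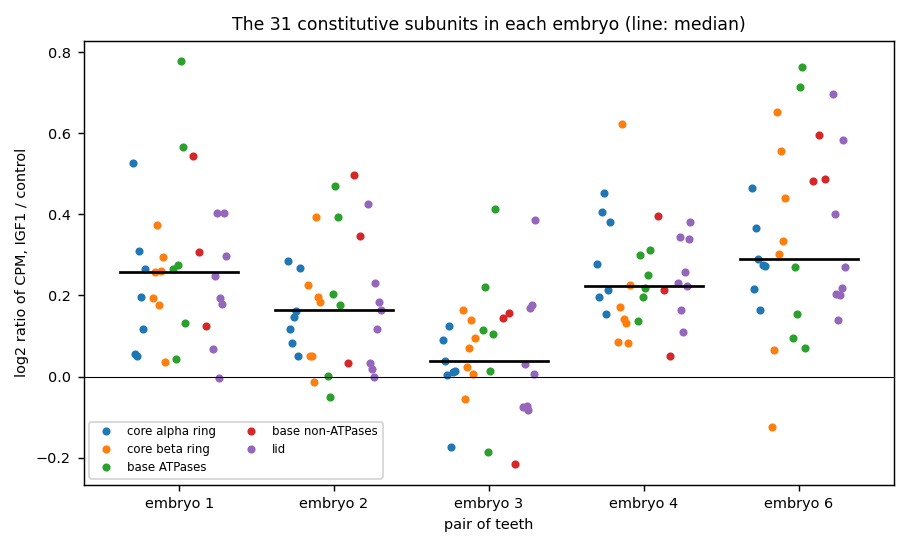
Log2 ratio of CPM (IGF1 over control, vertical axis) of the 31 constitutive subunits in each embryo's pair of teeth, 1 point per gene coloured by its part of the particle, with a line at the median. The median is lowest in embryo 3 (0.038) and highest in embryo 6 (0.29).

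Accessory proteins of the particle had log2 fold changes on both sides of 0. Of 8 tested, 0 passed the threshold with edgeR, DESeq2 or limma-voom. With edgeR, 6.72% of all genes were called higher and 4.76% lower. At an unadjusted p under 0.05, 1 was higher (Psme3), against 14.3% of all genes, and 0 were lower, against 12.2%. These counts lie near the shares over all genes. Psme3 passed with embryos 2 and 3 left out (edgeR, adjusted p = 0.0432). A difference from the constitutive subunits was not tested. Psmd5, Psmd9 and Psmd10 are chaperones that assemble the base. Psmd10 measured 11.3, 17.4, 15.2, 15.03 and 9.996 CPM in the control teeth of embryos 1, 2, 3, 4 and 6, and 12.4, 9.63, 14.2, 12.4 and 9.99 CPM in their IGF1 teeth. It was lower with IGF1 in 4 of 5 embryos (log2 fold change -0.25 ± 0.16, adjusted p = 0.363). Psmd5 measured 45.004, 68.5, 57.8, 53.5 and 61.2 CPM in the control teeth of embryos 1, 2, 3, 4 and 6, and 46.4, 63.2, 64.4, 61.5 and 68.1 CPM in their IGF1 teeth, and its groups overlapped widely (log2 fold change 0.090 ± 0.077, adjusted p = 0.511). Psmd9 was level, at 31.3 ± 1.06 CPM in control and 31.7 ± 3.24 CPM in IGF1 teeth (mean ± SD, n = 5), with a log2 fold change of -0.00039 ± 0.094.

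Activators replace the regulatory particle at the ends of the core. Psme1, which with Psme2 forms an activator that interferon induces, measured 50.8, 43.5, 40.5, 36.9 and 42.4 CPM in the control teeth of embryos 1, 2, 3, 4 and 6, and 43.5, 34.9, 37.1, 44.5 and 38.3 CPM in their IGF1 teeth. It was lower with IGF1 in all embryos except embryo 4. Psme2 measured 25.1, 23.1, 30.003, 25.7 and 24.7 CPM in the control teeth of embryos 1, 2, 3, 4 and 6, and 31.4, 26.03, 23.8, 34.7 and 32.7 CPM in their IGF1 teeth, with the IGF1 tooth lower only in embryo 3; its counts are uncertain to the extent that reads are shared with Psme2b. The log2 fold change was -0.11 ± 0.10, adjusted p = 0.534 for Psme1 and 0.19 ± 0.12, adjusted p = 0.363 for Psme2. Psme3, which forms a nuclear activator, measured 45.004, 72.03, 77.5, 73.2 and 76.3 CPM in the control teeth of embryos 1, 2, 3, 4 and 6, and 83.5, 73.8, 80.3, 78.2 and 106 CPM in their IGF1 teeth. It was higher in all 5 embryos, most of all in embryo 1, whose control tooth had the lowest value of either group. Its log2 fold change was 0.28 ± 0.12, adjusted p = 0.147. Psme4, a single-chain activator, measured 206, 281, 247, 216 and 262 CPM in the control teeth of embryos 1, 2, 3, 4 and 6, and 206, 299, 306, 225 and 252 CPM in their IGF1 teeth, and the sign of the difference varied among embryos (log2 fold change 0.081 ± 0.070, adjusted p = 0.509). Psmf1, known as a proteasome inhibitor, measured 31.3, 38.1, 38.7, 37.02 and 38.2 CPM in the control teeth of embryos 1, 2, 3, 4 and 6, and 28.5, 30.1, 35.5, 35.7 and 39.5 CPM in their IGF1 teeth. It was lower with IGF1 in all embryos except embryo 6 (log2 fold change -0.12 ± 0.088, adjusted p = 0.431).

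Inducible subunits replace the catalytic ones in immune cells, and Psmb11 does so in the thymic cortex. Psmb10 measured 4.81, 5.11, 4.25, 4.54 and 1.97 CPM in the control teeth of embryos 1, 2, 3, 4 and 6, and 4.03, 4.04, 3.79, 6.49 and 3.997 CPM in their IGF1 teeth. Psmb11 measured 2.40, 3.51, 4.13, 1.70 and 3.03 CPM in the control teeth of embryos 1, 2, 3, 4 and 6, and 2.88, 2.02, 2.52, 1.98 and 1.71 CPM in their IGF1 teeth. The groups overlapped for both genes, and the fits gave wide errors (log2 fold change 0.14 ± 0.26, adjusted p = 0.771 for Psmb10 and -0.44 ± 0.29, adjusted p = 0.377 for Psmb11). Psmb8, Psmb9, the germ-line alpha subunit Psma8 and Psme2b did not pass the filter, with totals of 61, 24, 25 and 35 counts over the 10 libraries. Their highest level in any library was 2.69 CPM for Psmb8, 0.687 for Psmb9, 0.851 for Psma8 and 1.42 for Psme2b, where 3 counts, the limit that a count of 0 allows, correspond to 0.344 to 1.03 CPM depending on the library (counting error only). None of these 4 genes was called in the fit without the count filter or with DESeq2, which both took in all 46 members. Their low counts limit what either fit could call. Of 10 genes of interferon response and class I antigen processing, 0 were called in either direction by edgeR, DESeq2 or limma-voom. With edgeR 3 had an unadjusted p under 0.05, in differing directions: Tap1 and H2-K1 were higher (log2 fold change 0.65 and 0.62) and Tapbp lower (-0.20). At that p, 14.3% of all genes were higher and 12.2% lower. The macrophage list summed to 66.3 to 91.9 CPM in control and 57.5 to 87.3 CPM in IGF1 teeth. Psmc3ip, the recombination factor, was higher in all 5 embryos (log2 fold change 0.40 ± 0.14, adjusted p = 0.0993).

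Levels between genes were compared per length, as CPM per kb of the longest annotated protein coding transcript. In control teeth the 31 constitutive subunits had a median of 48.8 CPM per kb and lay within a 3.07-fold range, from 27.3 (Psmd13) to 83.8 (Psmb6). The medians were 64.1 for the alpha ring, 56.3 for the beta ring, 54.7 for the ATPases, 44.9 for the other base genes and 37.8 for the lid. Their order turned with the length taken: the medians were 72.6, 56.9, 56.7, 60.4 and 48.5 per kb of the median transcript and 28.8, 30.7, 38.1, 28.1 and 21.9 per kb of the union of annotated exons, with the lid lowest on each of the 3 scales and the alpha ring highest on both transcript scales only. Assembly chaperones (median 12.1) and Psmf1 (9.63) were lower on this scale. Each inducible or tissue-specific subunit was far below the gene it stands in for: Psmb8 at 1.54% of Psmb5, Psmb9 at 0.350% of Psmb6, Psmb10 at 4.19% of Psmb7, Psmb11 at 1.45% of Psmb5 and Psma8 at 0.442% of Psma7. Psmb8, Psmb9 and Psma8 had only 61, 24 and 25 counts over all libraries, so their percentages are rough. The values depend on the length taken: with the median transcript the 31 subunits had a median of 58.6 CPM per kb and spanned 8.08-fold, and with the union of annotated exons a median of 28.1 CPM per kb and 3.87-fold. The percentages moved as well, to 2.52% for Psmb8, 0.895% for Psmb9, 4.19% for Psmb10, 2.16% for Psmb11 and 0.494% for Psma8 with the median transcript, and to 0.739%, 0.303%, 9.51%, 1.28% and 0.797% with the exon union.

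**Figure D4:**
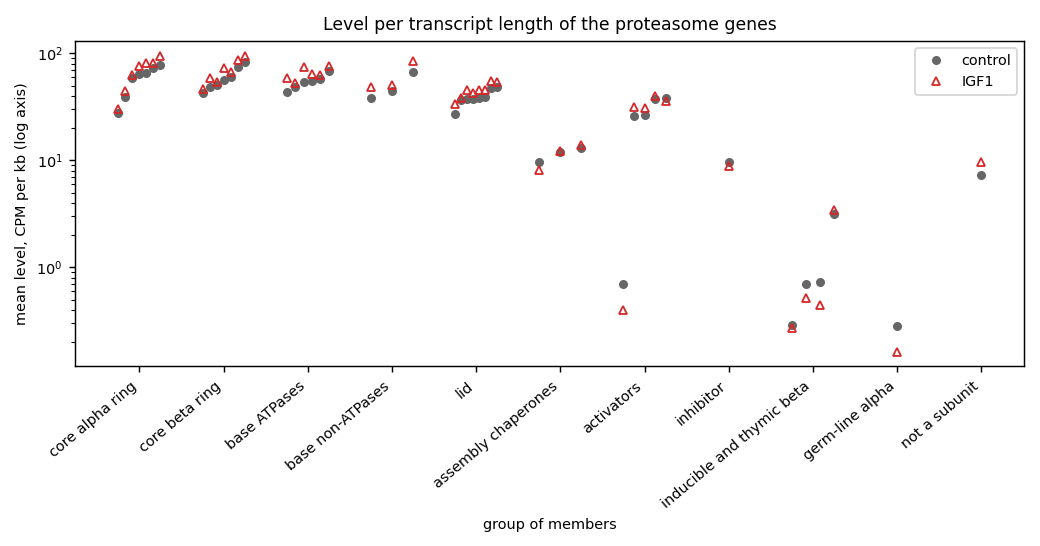
Mean level per length (CPM per kb, log axis, n = 5 teeth) of the 46 proteasome genes in control (circles) and IGF1 (triangles) teeth, in columns by part of the particle. The constitutive subunits lie between 27.3 and 83.8 CPM per kb in control teeth, and the inducible, thymic and germ-line subunits lie at up to 3.16 CPM per kb in control and 3.41 in IGF1 teeth.

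Among 15 subunits and partners that the symbol rule leaves out, 3 rose and 0 fell (14504 genes tested, 6.72% higher and 4.76% lower). They were Ubqln1 (log2 fold change 0.39 ± 0.066, adjusted p = 0.00358) and Rad23b (0.37 ± 0.063, adjusted p = 0.00389), shuttle proteins that carry ubiquitinated substrates to the base, and Txnl1 (0.30 ± 0.068, adjusted p = 0.0176), a thioredoxin-like protein bound to the proteasome. Txnl1 did not pass without the replicate block (adjusted p = 0.234) or without embryo 1 (0.0508), 4 (0.0740) or 6 (0.0738), and Ubqln1 and Rad23b passed in each of these fits. The subunits Adrm1 and Sem1 had values of 0.16 ± 0.11 and 0.11 ± 0.075, and the list's median was 0.061. Of 9 genes of ubiquitin supply and extraction 1 rose, Vcp (log2 fold change 0.32 ± 0.064, adjusted p = 0.00897), the ATPase that extracts ubiquitinated proteins for degradation; it did not pass without embryo 6 (adjusted p = 0.0516). None of the 5 other assembly chaperones found (Psmg1 to Psmg4 and Pomp) and none of 8 genes for transcription of the proteasome passed the threshold with edgeR, DESeq2 or limma-voom. At an unadjusted p under 0.05 with edgeR these counts were 0 and 3, against 14.3% of all genes higher and 12.2% lower. Of the 3, Nfe2l1 and Keap1 (0.24 ± 0.084) were higher and Ngly1 (-0.22 ± 0.10) was lower. Nfe2l1 was closest to the threshold (0.23 ± 0.071, adjusted p = 0.0590, higher in all 5 embryos).

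Chromosomal position was examined as the number of protein coding genes no more than 500 kb up- or downstream of where each gene starts. The 46 genes lie on 16 chromosomes, with 10 of them on chromosome 11, and have a median of 20 neighbours. For 36 of the 46 no neighbour is another proteasome gene; the pairs are Psmb4 with Psmd4, Psmb5 with Psmb11, Psme1 with Psme2, Psmb8 with Psmb9, and Psme3 with Psmc3ip. Of 605 distinct neighbours tested, 66 were called (10.9%, 36 higher and 30 lower), against 11.5% of all genes, and their median log2 fold change was 0.00076. For 7 members a protein coding gene that does not overlap them starts within 1000 bp in the opposite direction, and none of these partners was called. Among the genes that rose, Psmc5 has such a partner, Ftsj3, which starts 75 bp away and had a log2 fold change of -0.029 (adjusted p = 0.877). In all, 10 members overlap another gene of the table, and whether the counting used strand is not given in the sources used here.

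Promoters were read from RefSeq (build GRCm38.p6) as 250 bases before to 50 bases after RefSeq's start of the gene, which gave 42 promoters for 39 of the members; Psma8, Psmb1, Psmb2, Psmb7, Psmc3, Psmd3 and Psmd7 were not matched. They were searched on both strands for the letters TGACNNNGC and TGAGNNNGC (forms of the antioxidant response element, to which Nfe2l1 binds), CCAAT and CACGTG. The last of these reads the same on both strands, and no motif contains another. TGAGNNNGC was found in 13 of the 42 promoters (31.0%) and in 17.6% of all 32851 promoters, and TGACNNNGC in 6 (14.3%) and 12.4%. One form or the other was in 17 (40.5%), against 27.8% of all promoters. CCAAT was in 15 (35.7%), against 37.4%, and CACGTG in 4 (9.52%), against 7.15%. Among the 7 genes that rose, TGAGNNNGC letters occur in Psma4 and Psmd1, CCAAT in Psma1 and Psmd14, CACGTG in Psma4, and none of the motifs in the promoters of Psmc4, Psmc5 and Psmd2. A match describes the letters and is no measured binding site. The promoters of the genes that rose and hold a match are shown 5′ to 3′ on the gene's strand, with capitals for the matched letters, at chr7:114276067-114276366 (minus strand) for Psma1, chr9:54950609-54950908 (plus strand) for Psma4, chr1:86064369-86064668 (plus strand) for Psmd1 and chr2:61711444-61711743 (plus strand) for Psmd14.
Psma1: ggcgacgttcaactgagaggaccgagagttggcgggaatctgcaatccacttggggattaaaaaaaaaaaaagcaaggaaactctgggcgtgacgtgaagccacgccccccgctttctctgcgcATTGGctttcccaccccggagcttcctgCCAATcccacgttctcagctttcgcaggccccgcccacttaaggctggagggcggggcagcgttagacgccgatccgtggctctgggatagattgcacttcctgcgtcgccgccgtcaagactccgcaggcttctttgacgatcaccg
Psma4: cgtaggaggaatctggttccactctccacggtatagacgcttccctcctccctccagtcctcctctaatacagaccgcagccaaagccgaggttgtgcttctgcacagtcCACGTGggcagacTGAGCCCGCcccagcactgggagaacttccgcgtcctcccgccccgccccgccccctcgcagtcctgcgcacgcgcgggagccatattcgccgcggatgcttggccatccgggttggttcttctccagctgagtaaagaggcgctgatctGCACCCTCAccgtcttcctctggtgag
Psmd1: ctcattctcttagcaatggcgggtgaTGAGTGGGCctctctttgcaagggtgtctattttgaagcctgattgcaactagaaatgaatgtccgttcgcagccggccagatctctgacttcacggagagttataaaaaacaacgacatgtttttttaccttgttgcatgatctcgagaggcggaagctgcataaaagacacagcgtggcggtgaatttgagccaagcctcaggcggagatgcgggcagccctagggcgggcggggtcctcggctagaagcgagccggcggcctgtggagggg
Psmd14: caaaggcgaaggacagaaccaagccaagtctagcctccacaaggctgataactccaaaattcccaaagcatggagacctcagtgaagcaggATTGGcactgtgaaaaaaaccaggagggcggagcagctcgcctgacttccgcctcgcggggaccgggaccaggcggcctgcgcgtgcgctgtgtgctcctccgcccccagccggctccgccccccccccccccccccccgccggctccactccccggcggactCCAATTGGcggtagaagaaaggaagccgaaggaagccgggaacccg

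The Psma1 promoter holds CCAAT on both strands, and that of Psma4 holds CACGTG close before a TGAGNNNGC match, with another match of TGAGNNNGC on the opposite strand after the start. RefSeq and GENCODE give different starts for some genes: the Psmd1 match begins 224 bases before the RefSeq start, which lies 232 bases downstream of the GENCODE start, and so begins 8 bases after the latter. For Psma4 the RefSeq start lies 69 bases downstream of that of GENCODE, and the order of matches and start is the same by either. In Psmd14 overlapping CCAAT matches on opposite strands lie just after the start.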

How the data were processed

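RNA of 10 single teeth was sequenced from libraries made with the Ovation Mouse RNAseq System. The submitters' processing notes name FastQC 0.11.8, Trimmomatic 0.39, Salmon 0.99.0, DESeq2 and GRCm38; the transcript set, summing and filter are not given in the sources used here. The deposited table holds the authors' estimated counts per gene as whole numbers, and no gene has under 10 counts in all. From these, edgeR 4.0.16 (filterByExpr, TMM, glmQLFit) compared IGF1 with control with embryo as a block, since the labels give each embryo a tooth in each treatment, and p-values were Benjamini-Hochberg adjusted over 14504 genes. Deviations of the teeth of 1 embryo from their group means correlated at -0.039 to 0.32 (above 0.1 in 4 of 5). For IGF1 and control teeth of different embryos the median was -0.046. The IGF1 tooth of embryo 3 and the control tooth of embryo 2 reached 0.23, above the 0.21 of embryo 2's own pair. Replicate libraries differed by 4.68 to 19.4 times counting noise (chi-square per degree of freedom). With embryo as a block, p-values rest on how the difference within a pair of teeth varied among these embryos. Log2 ratios per embryo used 0.5 added counts.

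Members and lists were chosen with earlier results of these data known. All members were named by subgroup. Values in every library were given for members past the threshold, for tested inducible, activator and inhibitor genes, and for the largest rise and fall of each other subgroup. Other pathway genes were named where past the threshold, and hypoxia and marker lists were given by counts, medians or sums. Psmg1 to Psmg4, Pomp, Adrm1, Sem1, Nfe2l1, Keap1, Ngly1, Ftsj3, Tap1, H2-K1, Tapbp, Epcam, Msx1 and Gm21972 were named after their values were seen. Positions are GRCm38 from GENCODE. Alternatives covered scaling, filter, test (limma 3.58.1, DESeq2 1.42.0), thinning, block and each embryo left out. The fit was also run on simulated data, but how often it finds differences as small as those of the members was not tested. Paaf1 and Ca9, each on a list, were not in the table.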

Additional observations from a re-analysis of the deposited data

Results flagged for a closer look

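In 5 of 92 groups of 5 libraries (46 genes, 2 groups each), 1 library stood apart from the other 4 by the Dixon criterion. Chance gives about 1 in 20 groups, here 4.6. Psmb2 was at 39.7 CPM in the control tooth of embryo 6 and at 36.1 to 36.5 CPM in the other control teeth. In the control tooth of embryo 1, the shallowest library, Psme3 was at 45.0 CPM (others 72.0 to 77.5) and Psmf1 at 31.3 CPM (others 37.0 to 38.7). Psmb10 was at 1.97 CPM (13 counts) in the control tooth of embryo 6 (others 4.25 to 5.11) and at 6.49 CPM (46 counts) in the IGF1 tooth of embryo 4 (others 3.79 to 4.04). None of these genes was among the 7 that rose.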

How the results depend on the processing

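The teeth are paired by embryo, and without the replicate block 887 genes were called (1666 with it) and 0 members (7 with it). Leaving out each embryo in turn gave 986 to 1602 genes and 0 (without embryo 6) to 9 (without embryo 3) members. Members called were 11 with at least 1 CPM required in every library (7.92% of all genes higher), 11 with embryos 2 and 3 left out together (5.80%) and 11 with GC content and length trends removed (8.21%), the latter pair of settings chosen after seeing the data. Embryos 2 and 3 had the lowest proteasome medians, so leaving them out raises the members' median by construction. Other scalings, no filter, DESeq2, limma-voom and thinning gave 5 to 7 members (3.80% to 7.0% of all genes in these fits higher). No setting called a member lower, and the median over the members ran from 0.13 to 0.22. Of 16 alternatives, Psmc5 and Psmd2 kept their call in 13, Psmc4 in 12, Psma1 and Psmd1 in 11, Psmd14 in 9 and Psma4 in 6. The sign turned for Psmd9 (0.0089 with no block, 0.00038 with no filter, 0.0034 with DESeq2, 0.013 thinned, -0.061 to 0.055 over the embryos left out, 0.083 without embryos 2 and 3), for Psmb10 (-0.043 to 0.28 over the embryos left out) and for Psme4 (-0.0052 without embryos 2 and 3), all log2 fold changes of genes that were not called; the cause was not tested. Depth, 24 to 61 counts in all, limits Psma8, Psmb8, Psmb9 and Psme2b.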
